A study of Mus musculus with 16 samples.

Results

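The 10 genes described here mark the endothelium, the cell layer that lines blood vessels: Eng, Robo4, Kdr, Cldn5, Pecam1, Cdh5, Tie1, Tek, Flt1 and Esam. They were chosen as markers by symbol, with earlier results of these data known, and are 10 of the 19938 mouse genes that the array measured with a probe set of 1 gene symbol. A probe set is the group of array probes that is summarised as 1 value. Each of the 10 genes had 1 probe set, and all 10 passed the filter on low values. RNA of whole hearts from 16 male C57BL/6 mice was hybridised to Affymetrix arrays, 1 array per mouse and 4 mice per group. The 4 groups were control mice after sham surgery, control mice after transverse aortic constriction (TAC), zbtb17 cKO mice after sham surgery and zbtb17 cKO mice after TAC. TAC is a surgical narrowing of the aortic arch that raises the pressure against which the left ventricle pumps. The mice were 8-10 weeks old before surgery and hearts were collected 4 weeks after it. Zbtb17 encodes Miz-1, a zinc finger transcription factor that can act together with Myc, and cKO stands for its conditional knockout. The driver of the deletion, the part of the gene that is removed and the alleles that the control mice carry are not given in the sources used here.

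Endothelial cells are held together by adherens and tight junctions with Cdh5, Cldn5 and Esam, and carry Pecam1 at the contacts between cells. They read growth and survival signals through the VEGF receptors Kdr and Flt1 and through the Tie receptors Tek and Tie1, and circulating BMP ligands through Eng. In the heart a dense net of capillaries runs between the muscle fibres, and growth of heart muscle under pressure load is accompanied by remodelling of these vessels. In RNA of whole hearts, a lower value can come from fewer endothelial cells, less RNA per endothelial cell or more RNA of other cells. These cannot be told apart.

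The arrays were alike in scale, with medians between 4.85 and 4.97 on the log2 scale of the deposited values. Cardiomyocyte markers were high on all arrays, for example Myh6, cardiac myosin, at 12.88 to 13.42, so heart muscle RNA was present on each. They do not check whether the whole heart, with its atria, was sampled. The mean of each endothelial gene lay above that of 75.5% (Cldn5) to 97.6% (Cdh5) of all 35556 probe sets, so all 10 were measured well above the dim end of the array; such percentiles also depend on the probes. The probe set of Zbtb17 read 6.19 to 6.62. The deleted part is not stated, so this value does not check the genotype. The atrial myosin light chain Myl7 ran from 4.30 to 8.83, and whether the share of atrial tissue differed between arrays was not tested. Myl7 was above 6 on 6 arrays. These were replicates 1 and 2 of cKO TAC, replicates 1 and 2 of control TAC, and 1 array of each sham group, control replicate 3 and cKO replicate 2. The stress gene Atf3 was above 8 on 3 sham arrays, replicates 3 and 4 of the controls and replicate 1 of cKO.

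The 10 genes varied together across arrays. The bases before their start sites are shown for Eng and Tie1, the pair with the highest correlation, and for Cldn5, the gene with the widest range. Each sequence is the 250 bases before the RefSeq start, in build GRCm38.p6, written 5′ to 3′ on the strand of the gene. Eng is at chr2:32646345-32646594 on the plus strand, Tie1 at chr4:118489850-118490099 on the minus strand and Cldn5 at chr16:18776597-18776846 on the plus strand, each ending at the base before the annotated gene. Capitals mark AGGAAG or CGGAAG on either strand, letters that ETS transcription factors, a family active in endothelium, can bind.
Eng: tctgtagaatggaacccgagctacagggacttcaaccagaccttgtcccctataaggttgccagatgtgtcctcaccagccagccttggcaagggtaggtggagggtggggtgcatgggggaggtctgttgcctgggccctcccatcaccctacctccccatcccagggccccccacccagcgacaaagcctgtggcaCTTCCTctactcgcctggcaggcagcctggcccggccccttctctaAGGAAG
Tie1: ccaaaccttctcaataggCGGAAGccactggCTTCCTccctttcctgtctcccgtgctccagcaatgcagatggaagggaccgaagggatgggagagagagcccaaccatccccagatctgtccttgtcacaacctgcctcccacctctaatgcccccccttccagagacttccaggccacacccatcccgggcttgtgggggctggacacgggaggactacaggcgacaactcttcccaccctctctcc
Cldn5: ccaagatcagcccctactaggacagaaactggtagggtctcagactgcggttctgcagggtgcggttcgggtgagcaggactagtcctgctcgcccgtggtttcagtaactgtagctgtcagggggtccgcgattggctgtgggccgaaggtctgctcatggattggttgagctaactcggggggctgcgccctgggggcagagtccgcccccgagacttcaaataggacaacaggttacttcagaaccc
Such a match stood in 4 of the 7 members whose promoter RefSeq's table held, Eng, Tie1, Flt1 and Robo4, and in 39.2% of the 32851 promoters of the same length. AGGAAG alone was found in the same 4 genes and in 29.5% of all promoters, and CGGAAG alone in Tie1 and in 13.6%. CCACCC, letters bound by Klf factors, was found in Eng, Tie1, Kdr and Flt1 and in 28.1% of all promoters. TATAAA, the TATA box, was found in Flt1 and in 12.4%. The windows held no match to GATAAG, which 6.55% of all promoters held and which factors of the family named after it bind. They held none to ACAATG, bound by Sox factors (10.7%), and none to CACGTG, the E-box bound by Myc (6.02%). All motifs were searched on both strands. For Tek and Robo4 the table's start lies inside the annotated gene, so those windows overlap its 5′ end. The AGGAAG match of Robo4 lies in that overlap, inside the annotated gene. The windows of Kdr and Flt1 lie wholly inside the annotated gene, and so do the matches found in them. Robo4 and Esam are near neighbours on chromosome 9, with 114066 bases and 2 protein-coding genes between them.

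The 10 genes lay lower in cKO than in control hearts on average, by small amounts that did not pass the test across all probe sets. Averaged over surgery, all 10 differences of cKO minus control were negative, from -0.29 for Eng to -0.13 for Pecam1 on the log2 scale, with a median of -0.21. Over all 21333 probe sets tested the median was -0.004 and 51.0% were negative. No endothelial gene had an adjusted p under 0.05 (limma, Benjamini-Hochberg over all probe sets tested), and the smallest was 0.156 for Eng. In this comparison 0.0188% of all probe sets were called. At an unadjusted p under 0.05, 6 of the 10 were lower (Eng, Robo4, Tie1, Kdr, Cdh5 and Tek), against 6.68% of all probe sets. Without the 3 sham arrays with Atf3 above 8 this count was 3, and all 10 differences stayed negative. No more than 5 probe sets were called in any of the comparisons below.

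**Figure D1:**
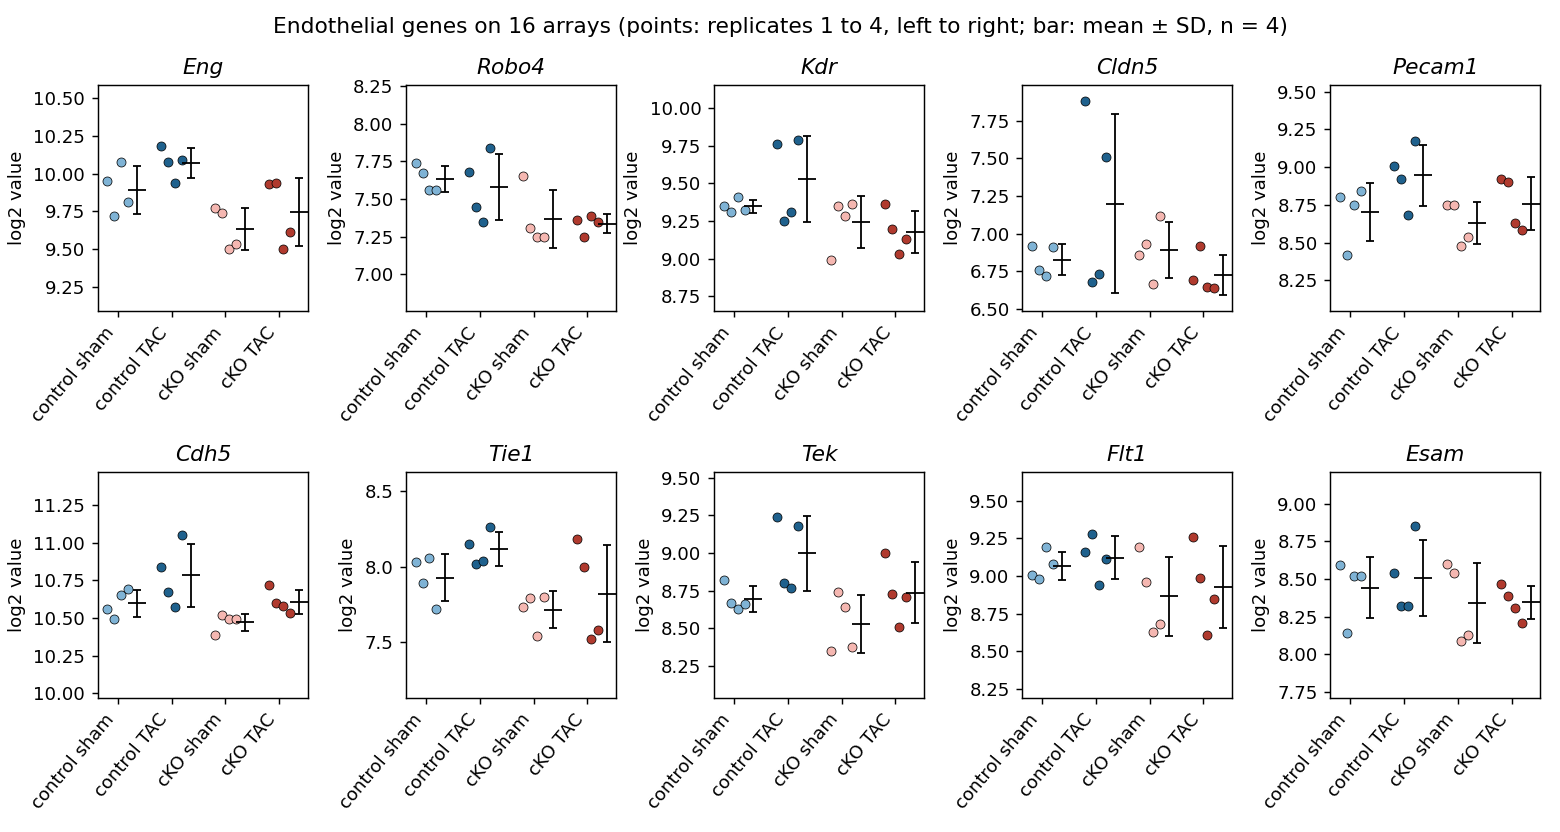
Log2 values of the 10 endothelial genes on 16 arrays, 1 panel per gene, with 4 points per group for replicates 1 to 4 and a bar for mean ± SD (n = 4). Each panel has its own axis of equal height. In 9 of the 10 panels the highest group mean is that of control TAC, and the groups overlap in nearly all comparisons.

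Kdr and Flt1 are the receptors of VEGF-A, Kdr carrying most of the growth signal and Flt1 binding the ligand tightly with little signalling. Kdr read 9.35, 9.31, 9.41 and 9.32 in control sham replicates 1 to 4 and 9.76, 9.25, 9.31 and 9.79 in control TAC. In cKO hearts it read 8.99, 9.35, 9.28 and 9.36 after sham and 9.36, 9.20, 9.03 and 9.13 after TAC. Replicates 1 and 4 of control TAC stood above every other array, and 3 of the 4 cKO TAC arrays lay below all control TAC arrays, while the fourth lay within their range. The difference of cKO minus control after TAC was -0.35 ± 0.12 (SE), a ratio of 0.786, with an unadjusted p of 0.0120 and an adjusted p of 0.563 in limma. After sham the same difference was -0.10 ± 0.12. Flt1 read 9.01, 8.98, 9.19 and 9.08 in control sham and 9.16, 9.28, 8.94 and 9.11 in control TAC. In cKO hearts it read 9.19, 8.96, 8.63 and 8.68 after sham and 9.26, 8.99, 8.61 and 8.85 after TAC. The control arrays of Flt1 kept between 8.94 and 9.28, while the cKO arrays spread from 8.61 to 9.26, with 4 of the 8 below every control array. Its difference was -0.20 ± 0.14 in sham hearts and -0.20 ± 0.14 after TAC, with an averaged adjusted p of 0.349.

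Tek is the receptor of the angiopoietins, and Tie1 is the related receptor that pairs with it. Tek read 8.82, 8.67, 8.63 and 8.66 in control sham and 9.24, 8.80, 8.77 and 9.18 in control TAC. The cKO values were 8.35, 8.74, 8.64 and 8.38 after sham and 9.0, 8.73, 8.51 and 8.71 after TAC. Control TAC replicates 1 and 4 were again the highest of the 16 arrays, and 3 of 4 cKO TAC arrays lay below all of control TAC. TAC minus sham in control hearts was 0.30 ± 0.13, a ratio of 1.23, with an unadjusted p of 0.0310 and an adjusted p of 0.569 in limma. In cKO hearts it was 0.21 ± 0.13, with an adjusted p of 0.776. For Tie1 the control values were 8.03, 7.89, 8.06 and 7.72 after sham and 8.15, 8.02, 8.04 and 8.26 after TAC. The cKO values were 7.73, 7.79, 7.54 and 7.80 after sham and 8.18, 8.00, 7.52 and 7.58 after TAC. The cKO TAC arrays of Tie1 fell into replicates 1 and 2, near the control TAC level, and replicates 3 and 4, among the lowest 3 of all 16 arrays. Replicates 1 and 2 of cKO TAC were also the higher ones for Eng (9.93 and 9.94 against 9.50 and 9.61) and Pecam1 (8.92 and 8.90 against 8.63 and 8.58). The same held in cKO sham for Eng (9.77 and 9.74 against 9.50 and 9.53) and Pecam1, but not for Tie1, Kdr or Tek. Myl7 was above 6 in the same replicates 1 and 2 of cKO TAC, and in cKO sham in replicate 2 alone. In control TAC it was also above 6 in replicates 1 and 2. There Tie1 read 8.15 and 8.02, against 8.04 and 8.26 in replicates 3 and 4. Whether atrial tissue has a part in the Tie1 values was not tested. Tie1 differed between the genotypes after TAC by -0.30 ± 0.13, with an unadjusted p of 0.0388 and an adjusted p of 0.642. Without the 6 arrays with Myl7 above 6, which leaves 2 arrays in each TAC group, that difference was -0.60.

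Eng, a co-receptor for BMP and TGF-beta ligands on endothelial cells, had the smallest p of the 10 genes in the averaged genotype comparison. It read 9.95, 9.72, 10.08 and 9.81 in control sham (mean 9.89 ± 0.16, SD, n = 4) and 10.18, 10.08, 9.94 and 10.09 in control TAC (10.07 ± 0.10). In cKO hearts it read 9.77, 9.74, 9.50 and 9.53 after sham (9.63 ± 0.14) and 9.93, 9.94, 9.50 and 9.61 after TAC (9.74 ± 0.22). After TAC 3 of 4 cKO arrays lay below all control arrays and the fourth equalled the lowest of them. The averaged difference was -0.29 ± 0.08, a ratio of 0.817, with a 95% interval from -0.46 to -0.13 and an unadjusted p of 0.00173. It was -0.26 ± 0.11 between the sham groups (adjusted p 0.429) and -0.33 ± 0.11 between the TAC groups (adjusted p 0.563). Robo4, a guidance receptor of the Roundabout family that stabilises vessels, read 7.74, 7.67, 7.56 and 7.56 in control sham and 7.68, 7.45, 7.35 and 7.84 in control TAC. The cKO values were 7.65, 7.31, 7.25 and 7.25 after sham and 7.36, 7.25, 7.39 and 7.35 after TAC. All cKO arrays but sham replicate 1 were at or under 7.39, and 3 of 4 cKO sham arrays lay below all control sham arrays. Its averaged difference was -0.26 ± 0.08, a ratio of 0.838, with an unadjusted p of 0.00478 and an adjusted p of 0.191. Of the 10 genes, Robo4 alone had a negative difference of TAC minus sham in control hearts, -0.05 ± 0.11, and without control TAC replicate 3 that difference turned to 0.02.

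Cdh5, VE-cadherin, is the adhesion protein of the endothelial adherens junction. It read 10.56, 10.49, 10.65 and 10.69 in control sham and 10.84, 10.67, 10.57 and 11.05 in control TAC. In cKO hearts the values were 10.39, 10.52, 10.49 and 10.49 after sham and 10.72, 10.60, 10.58 and 10.53 after TAC. All 4 cKO TAC arrays lay above all 4 cKO sham arrays, the nearest being at 10.53 and 10.52, and Cdh5 was the single gene of the 10 whose groups did not overlap in any comparison of 4 arrays with 4. That difference was 0.14 ± 0.09, with an unadjusted p of 0.140 and an adjusted p of 0.791. Cldn5, the main claudin of endothelial tight junctions, read 6.92, 6.76, 6.72 and 6.91 in control sham and 7.88, 6.68, 6.73 and 7.51 in control TAC. The cKO values were 6.86, 6.93, 6.67 and 7.12 after sham and 6.69, 6.92, 6.65 and 6.64 after TAC. Control TAC replicates 1 and 4 stood apart from all other arrays of Cldn5, while replicates 2 and 3 of that group were at the sham level, which gave the widest spread of any group (SD 0.59, n = 4). The difference of cKO minus control after TAC was -0.48 ± 0.21 for Cldn5, a ratio of 0.719 with an unadjusted p of 0.0353 and an adjusted p of 0.634. Without control TAC replicate 1 it was -0.25. In sham hearts Cldn5 differed by 0.07 ± 0.21, which turned to -0.01 without cKO sham replicate 4.

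Pecam1, an adhesion molecule at the contacts between endothelial cells that platelets and leukocytes also carry, read 8.80, 8.42, 8.75 and 8.84 in control sham and 9.01, 8.92, 8.68 and 9.17 in control TAC. In cKO hearts it read 8.75, 8.75, 8.48 and 8.54 after sham and 8.92, 8.90, 8.63 and 8.58 after TAC. In each genotype the TAC arrays reached higher than the sham arrays, with overlap, and averaged over genotype the difference of TAC minus sham was 0.18 ± 0.09 (unadjusted p 0.0473, adjusted p 0.409). Esam, an immunoglobulin-like adhesion molecule of endothelial tight junctions and platelets, read 8.59, 8.14, 8.52 and 8.52 in control sham and 8.54, 8.32, 8.32 and 8.85 in control TAC. The cKO values were 8.60, 8.54, 8.09 and 8.13 after sham and 8.47, 8.39, 8.31 and 8.21 after TAC. Its 4 groups lay almost on top of each other, and its differences in the 4 comparisons of 2 groups ran from -0.16 to 0.07, each with an SE of 0.14.

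Between the TAC groups all 10 differences of cKO minus control were negative, from -0.48 to -0.16 with a median of -0.25, while the median of all probe sets was -0.005. Adjusted p-values ran from 0.563 to 0.838 in limma, and 0.00469% of all probe sets were called. At an unadjusted p under 0.05, 5 genes were lower (Eng, Kdr, Cldn5, Tie1 and Robo4), against 3.75% of all probe sets. None of the 10 had groups that did not overlap, against 1.89% of all probe sets with cKO wholly lower. The count of 5 moved with single arrays. It was 1 without control TAC replicate 4, 2 without control TAC replicate 1 or without cKO TAC replicate 3 or 4, and 8 without control TAC replicate 3. Without the 3 sham arrays with Atf3 above 8 it was 3. Without control TAC replicate 4 the difference was -0.16 for Robo4, -0.11 for Pecam1, -0.09 for Cdh5 and -0.05 for Esam, and without cKO TAC replicate 3 it was -0.09 for Flt1. The median of the 10 differences stayed negative in each of these fits, and without the 6 arrays with Myl7 above 6 it was -0.34 with 4 genes lower at that threshold.

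**Figure D2:**
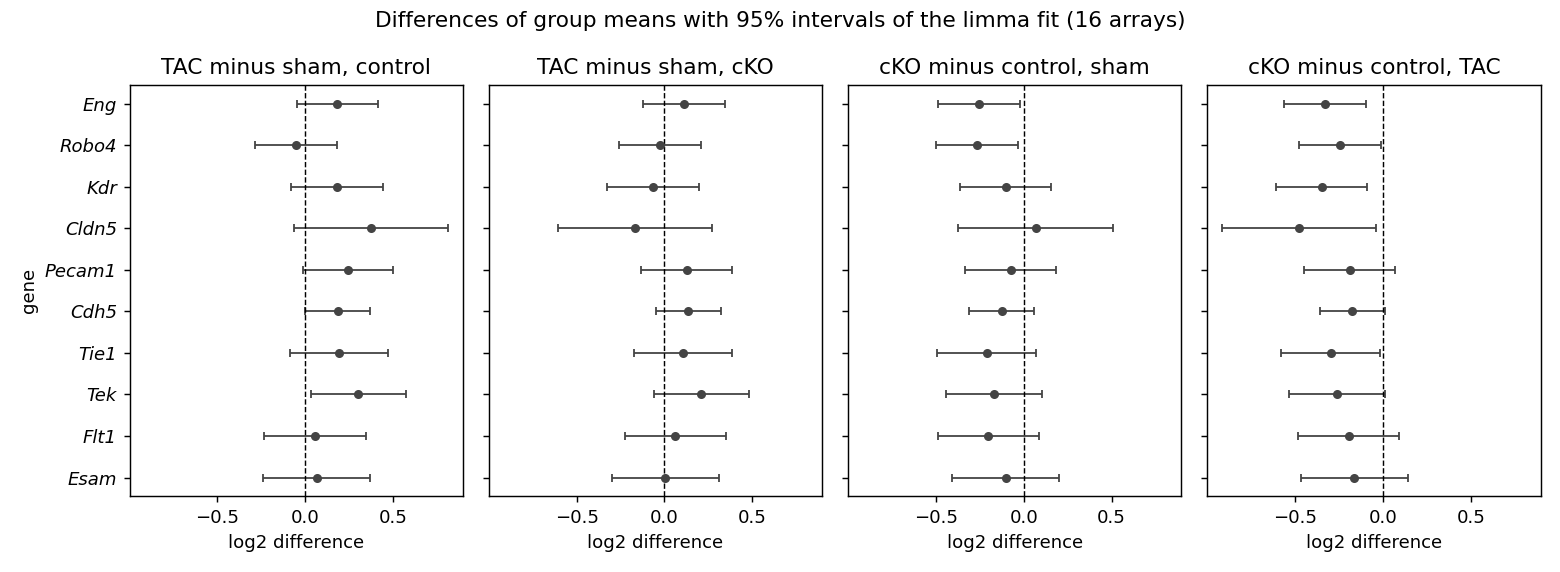
Log2 differences of group means of the 10 genes in 4 comparisons, with 95% intervals of the limma fit to 16 arrays; the dashed line marks no difference. In the panel of cKO minus control after TAC all 10 points lie left of the line, from -0.48 to -0.16, and 5 intervals leave it out.

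Between the sham groups 9 of 10 differences were negative, Cldn5 being the exception, with a median of -0.15 against 0.002 over all probe sets. Robo4 (-0.27 ± 0.11, unadjusted p 0.0271, adjusted p 0.414) and Eng were lower at an unadjusted p under 0.05, against 4.72% of all probe sets. None passed the adjusted threshold in limma, where 0.0234% of all probe sets were called, and none had cKO arrays wholly below the control arrays, against 2.32%. The count of 2 was 0 without cKO sham replicate 3 or 4, without control sham replicate 1 or without the 6 arrays with high Myl7. It was 1 without cKO sham replicate 2, without control sham replicate 2 or 3, or without the 3 arrays with high Atf3, and 3 without cKO sham replicate 1.

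After TAC the control hearts read higher than after sham in 9 of 10 genes, with a median difference of 0.18 against 0.015 over all probe sets. Tek and Cdh5 (0.19 ± 0.09, unadjusted p 0.0495, adjusted p 0.596) were higher at an unadjusted p under 0.05, against 4.9% of all probe sets. Without control TAC replicate 4 the difference of Cdh5 was 0.10 and the median of the 10 genes 0.12. No gene and 0% of all probe sets passed the adjusted threshold in limma, and none of the 10 had TAC arrays wholly above the sham arrays, against 2.27%. The count of 2 was 0 without control TAC replicate 1 or 4, without control sham replicate 2 or without the 6 arrays with high Myl7. It was 4 without control TAC replicate 2 or 3. It was 1 without control sham replicate 1 or 3, without any single cKO array, or without the 3 arrays with high Atf3. In cKO hearts 7 of 10 differences of TAC minus sham were positive with a median of 0.08. Without cKO TAC replicate 1, 4 of 10 were positive and the median was -0.025, and over all single arrays left out the median ran up to 0.156, without cKO TAC replicate 3. No gene reached an unadjusted p under 0.05 there (1 did without cKO TAC replicate 3), against 3.85% of all probe sets, and adjusted p-values ran from 0.776 to 0.996. The non-overlap of Cdh5 in that comparison stands against 2.28% of all probe sets. In that comparison too 0% of all probe sets were called, and the median of the 10 genes was -0.03 without the 6 arrays with high Myl7. Averaged over genotype, Tek (0.26 ± 0.09, adjusted p 0.295), Cdh5 (0.16 ± 0.06, adjusted p 0.327) and Pecam1 were higher at an unadjusted p under 0.05, against 7.24% of all probe sets and with 0% called. Without cKO TAC replicate 3 there were 5 such genes and without the 6 arrays with high Myl7 there were 0.

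The difference between the 2 genotypes in their response to TAC was tested as an interaction. It was negative in 8 of 10 genes, with a median of -0.08 against -0.01 over all probe sets. With single arrays left out this median ran from -0.152, without cKO TAC replicate 1, to -0.018, without control sham replicate 2. Cldn5 had the lowest value, -0.54 ± 0.29, with an unadjusted p of 0.0817, followed by Kdr at -0.24 ± 0.17. No gene reached an unadjusted p under 0.05, against 3.7% of all probe sets, all 10 adjusted p-values were 1 in limma, and 0% of all probe sets were called. Without control TAC replicate 2 or 3 there was 1 such gene. With 4 arrays per group the 95% interval of the interaction ran from -0.40 to 0.26 for Eng and from -1.16 to 0.08 for Cldn5.

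The 10 genes varied together from array to array. The mean of the 10, set to 0 over the 16 arrays, was 0.35, 0.05, -0.03 and 0.39 in control TAC replicates 1 to 4 and 0.08, -0.09, 0.06 and 0.01 in control sham. It was -0.07, -0.03, -0.24 and -0.17 in cKO sham and 0.09, -0.004, -0.22 and -0.18 in cKO TAC. In control TAC replicates 1 and 4 all 10 genes were above their own mean, and none was in replicates 3 and 4 of cKO TAC or in replicate 3 of cKO sham. Control TAC replicate 4 held the highest value of 6 genes and was among the highest 2 arrays for 9. Ordered by their mean, the groups ran from control TAC (0.19 ± 0.21, SD, n = 4) over control sham (0.02 ± 0.08) and cKO TAC (-0.08 ± 0.15) to cKO sham (-0.13 ± 0.09), and neighbours in this order overlapped. By gene, 9 had their highest group mean in control TAC and 1, Robo4, in control sham. The lowest group mean was that of cKO sham in 7 genes and that of cKO TAC in 3 (Robo4, Kdr and Cldn5).

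**Figure D3:**
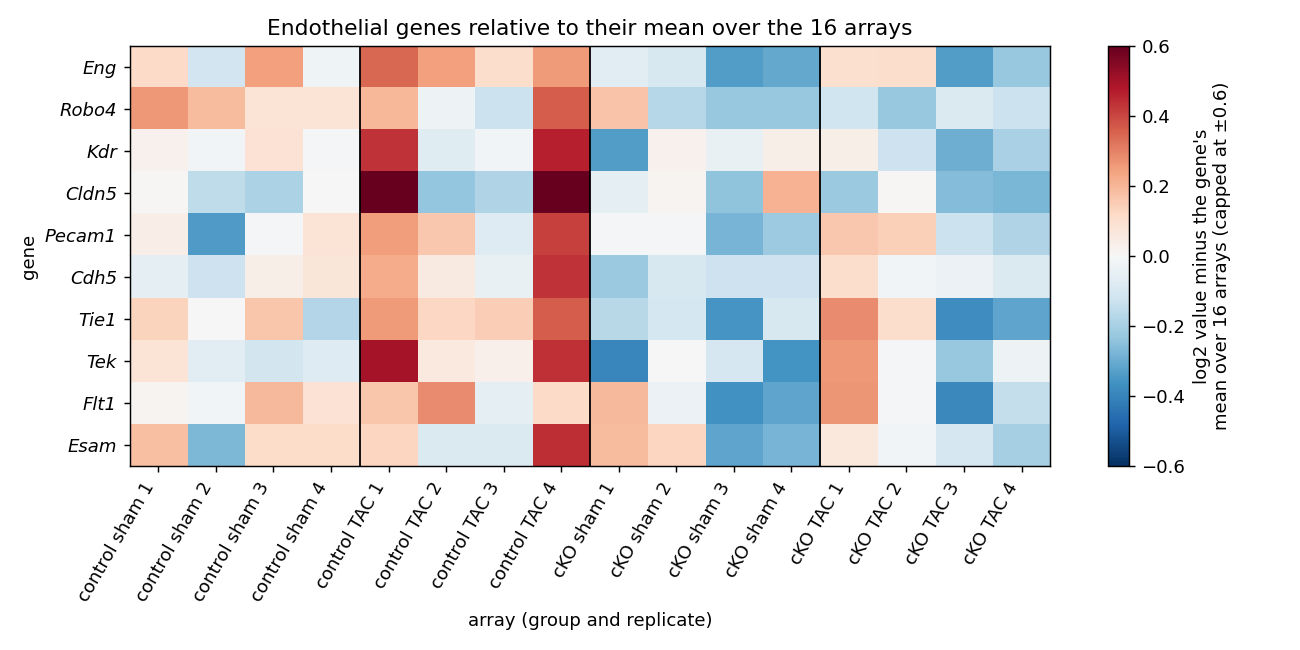
Log2 value of each endothelial gene (rows) on each of the 16 arrays (columns, by group and replicate) minus the mean of that gene over the 16 arrays, with colours ending at ±0.6. Control TAC replicates 1 and 4 are above the mean in all 10 rows, and replicates 3 and 4 of cKO TAC and replicate 3 of cKO sham are below it in all 10.

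Across the 16 arrays all 45 pairs of the 10 genes had a positive Pearson correlation, from 0.212 to 0.887 with a median of 0.611. Within groups, on the deviations from the group means, all 45 were positive too, with a median of 0.497. Without control TAC replicates 1 and 4 the values ran from -0.353 to 0.861, with a median of 0.416. These correlations share the arrays and their scaling and are given as a description. Eng and Tie1 had the highest value, 0.887, followed by Eng and Flt1 with 0.835, Cdh5 and Tek with 0.83, and Pecam1 and Esam with 0.825. Tie1 and Tek, the pair of Tie receptors, had 0.715, and the neighbours Robo4 and Esam 0.654. The 2 VEGF receptors were among the least alike: Kdr and Flt1 had 0.313, and within groups 0.0487. The lowest pair was Cldn5 and Flt1, at 0.212.

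The 8 other genes most like the mean of the 10, by Pearson correlation over the 16 arrays, were Elk3, Neurl1b, Prkch, Atp8b2, Ehd2, Acvrl1, Sh3rf1 and Heyl. Elk3, an ETS transcription factor, had r = 0.913 and Spearman rho = 0.884. Neurl1b, a ubiquitin ligase of Notch ligands, had r = 0.907, and Prkch, a protein kinase C, r = 0.903. Atp8b2 (0.901), Ehd2 (0.895), Acvrl1 (0.886), Sh3rf1 (0.881) and Heyl (0.88) followed. Acvrl1 encodes ALK1, the receptor with which Eng works, and Heyl a transcription factor downstream of Notch. Without control TAC replicates 1 and 4 the 8 values of r were between 0.667 (Ehd2) and 0.842 (Acvrl1), and rho over all 16 arrays was between 0.782 and 0.916.

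Around the 10 genes, 135 further genes of 12 lists were tested. The lists cover endothelial ligands, receptors, junctions, transcription factors, markers and vessel types, induced adhesion molecules, and genes of the cell cycle. Between the genotypes, averaged over surgery, 98 were negative and 37 positive, with a median of -0.08, and 18 were lower and 2 higher at an unadjusted p under 0.05. Of all probe sets 51.0% were negative and 6.68% lower at that threshold, with a median of -0.004. No gene of these lists passed the adjusted threshold in limma, and the lowest adjusted p was 0.177, that of Dll4. Of 31 other endothelial markers 29 were negative, with a median of -0.15 and 6 lower at an unadjusted p under 0.05. Nos3, the endothelial nitric oxide synthase, differed by -0.26 (adjusted p 0.190) and Icam2, an adhesion molecule of resting endothelium, by -0.20 (adjusted p 0.201). Of 19 endothelial transcription factors 16 were negative, with a median of -0.13, among them Elk3 at -0.28 (adjusted p 0.248) and Ets1 at -0.21 (adjusted p 0.297). Of 11 Notch and artery genes 10 were negative, with a median of -0.13. Dll4, the Notch ligand of arteries and sprouting tips, differed by -0.30 and its receptor gene Notch4 by -0.24 (adjusted p 0.206). Endothelial junction genes had a median of 0.005 with 6 of 16 negative, and the Robo and Slit system -0.005 with 4 of 7 negative.

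The ligands and partners of the receptors gave medians between -0.10 and -0.005. Of 8 VEGF ligands and receptors beyond Kdr and Flt1, 7 were negative with a median of -0.09. Vegfb differed by -0.15 (adjusted p 0.203) and Vegfd by 0.21 (adjusted p 0.318). In the angiopoietin system 4 of 5 were negative with a median of -0.10, with Angpt4 at -0.14 (adjusted p 0.276) and Ptprb, the phosphatase that acts on Tek, also at -0.14 (adjusted p 0.306). Of 15 genes around endoglin 9 were negative with a median of -0.03, with Acvrl1 at -0.19 (adjusted p 0.274) and Id1, a target of BMP signalling, at -0.21 (adjusted p 0.350). In the Robo and Slit list Pxn, paxillin, was at -0.16 (adjusted p 0.232) and the ligand gene Slit2 at 0.19 (adjusted p 0.343). Vein and lymphatic genes were negative in 6 of 8, with a median of -0.04, endocardial genes in 3 of 6 with a median of 0.06, and induced adhesion molecules in 4 of 5 with a median of -0.11. Among them Nr2f2, a transcription factor of veins, was at -0.19 (adjusted p 0.314), Npr3, a natriuretic peptide receptor of the endocardium, at 0.25 (adjusted p 0.320) and the chemokine gene Cxcl1 at -0.23 (adjusted p 0.186). Cell cycle genes were negative in 2 of 6, with a median of 0.02.

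After TAC, averaged over genotype, 93 of the 135 genes were positive and 42 negative, with a median of 0.07, and 25 were higher and 4 lower at an unadjusted p under 0.05. Of all probe sets 53.9% were positive and 7.24% higher at that threshold, with a median of 0.01. None passed the adjusted threshold in limma. Other endothelial markers were positive in 28 of 31, with a median of 0.12 and 11 higher at an unadjusted p under 0.05, led by Podxl, podocalyxin, at 0.37 and Mmrn2, a matrix protein of vessels, at 0.26. Transcription factors were positive in 16 of 19 with a median of 0.10, and Notch and artery genes in 4 of 11 with a median of -0.05. The ligands went in different directions. Vegfa was at -0.30 ± 0.06, with an adjusted p of 0.172, the smallest of the lists, while Vegfc was at 0.34 ± 0.09 (adjusted p 0.233). Angpt1, the ligand that activates Tek, was at -0.54 ± 0.24 (adjusted p 0.387) and Angpt2, its context-dependent antagonist, at -0.31 ± 0.12 (adjusted p 0.337), while Tek itself was at 0.26. Around Eng, Smad6, an inhibitor of BMP signalling, was at 0.23 and the TGF-beta receptor Tgfbr2 at 0.30. Slit3 was at 0.27, the Robo4 partner Unc5b at 0.32, and the junction molecule Jam3 at 0.25.

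Markers of other heart cells were read on the same arrays. Averaged over surgery, 6 of 6 platelet and megakaryocyte markers were negative between the genotypes, with a median of -0.17 and 2 lower at an unadjusted p under 0.05, against 6.68% of all probe sets. Their mean level ran from 5.65 to 5.86 in control sham and from 5.64 to 5.86 in control TAC, against 5.46 to 5.74 in cKO sham and 5.45 to 5.75 in cKO TAC. Pecam1 and Esam are also genes of platelets, and the part of platelet RNA in their differences was not tested. Cardiomyocyte markers were positive in 9 of 10, with a median of 0.06, and fibroblast markers in 10 of 10, with a median of 0.11. The cardiomyocyte genes Actn2 and Tnnt2 were at 0.19 and 0.075, with unadjusted p of 0.0121 and 0.0203 in limma (adjusted p 0.222 and 0.252). Pericyte and smooth muscle markers were negative in 5 of 10, with a median of -0.03, and macrophage markers were negative in 6 of 10, with a median of -0.05. Kcnj8 of pericytes was at -0.24 and Myh11 of smooth muscle at 0.29, with unadjusted p of 0.0115 and 0.0296 in limma (adjusted p 0.221 and 0.281). Immediate early and stress genes, which do not mark a cell type, were negative in 8 of 8, with a median of -0.17. Their list mean was highest on the 3 sham arrays with Atf3 above 8, Atf3 being in the list. It was 0.87 and 0.60 in control sham replicates 3 and 4 and 0.76 in cKO sham replicate 1. The share of other cells or of the stress response in the endothelial differences was not tested.

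After TAC, averaged over genotype, macrophage markers were positive in 10 of 10, with a median of 0.43 and 7 higher at an unadjusted p under 0.05, against 7.24% of all probe sets. Their mean level ran from 6.67 to 7.33 in control sham and 7.12 to 7.83 in control TAC, against 6.81 to 7.07 in cKO sham and 7.07 to 7.87 in cKO TAC. Fibroblast markers were positive in 10 of 10 with a median of 0.30, 5 of them at an unadjusted p under 0.05 against the same 7.24%, and pericyte and smooth muscle markers in 8 of 10 with a median of 0.13. Immediate early and stress genes were negative in 7 of 8, with a median of -0.33, and cardiomyocyte markers in 7 of 10, with a median of -0.04. Dusp1 and Jun were at -0.38 and -0.56, with unadjusted p of 0.00235 and 0.00785 in limma (adjusted p 0.233 and 0.272). Pln and Ryr2 of cardiomyocytes were at -0.08 and -0.26, with unadjusted p of 0.0164 and 0.0329 in limma (adjusted p 0.316 and 0.372). The part of other cells or of the stress response in the endothelial values was not tested. By array, cKO TAC replicate 2 had the highest macrophage mean, 0.70 above that over 16 arrays. It also had the highest fibroblast mean, 0.86, with an endothelial mean of -0.004. Control TAC replicate 4 was high for macrophages (0.66), fibroblasts (0.31) and endothelial genes (0.39) alike.

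**Figure D4:**
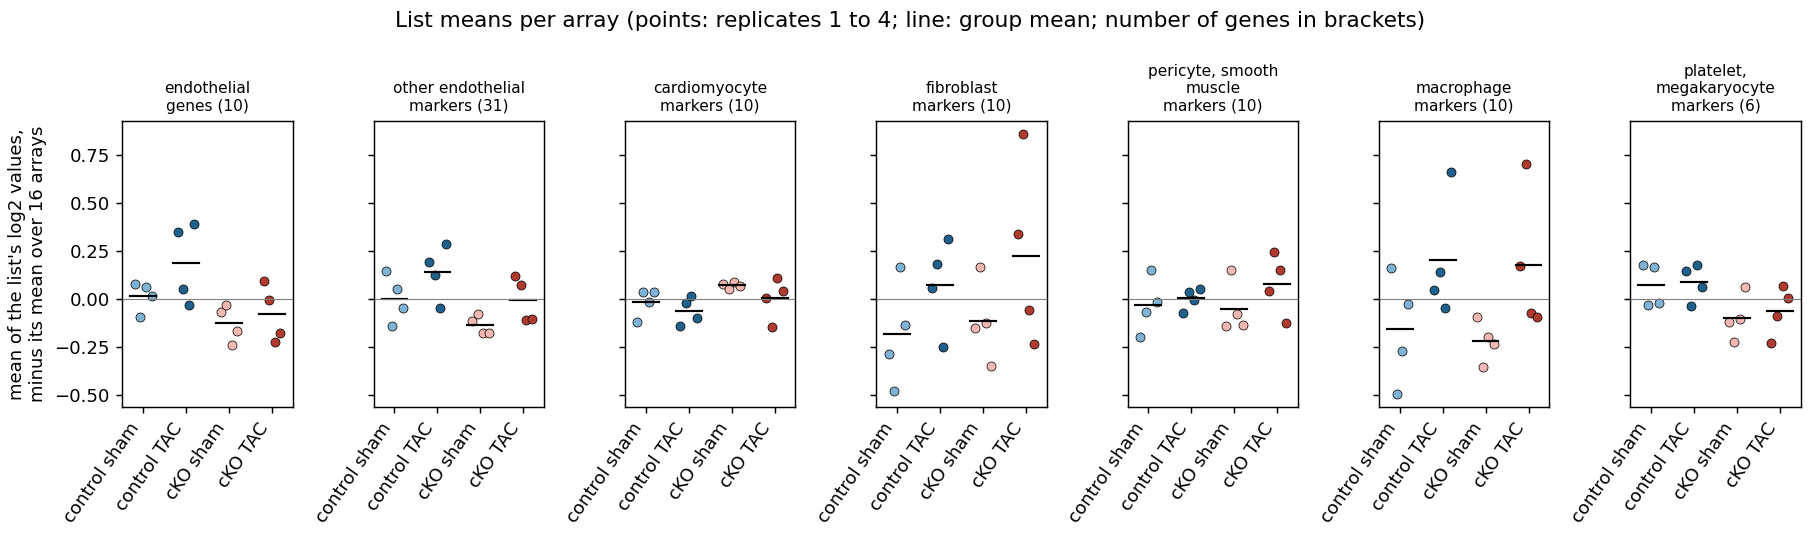
Mean log2 value of 7 gene lists per array, minus the mean over the 16 arrays, with 4 points per group for replicates 1 to 4 and a line for the group mean. The 10 endothelial genes and the 31 other endothelial markers share the order of the groups, with control TAC highest (0.19 and 0.14) and cKO sham lowest (-0.13 and -0.14).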

How the data were processed

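RNA of 16 hearts was read on Affymetrix arrays, 1 per mouse. The authors deposited log2 values for 35556 probe sets, used here as they stand; the submitters' processing notes name MAS5, without a version, and the sources used here do not give the scaling. The log base was taken from the values, since base e would put the highest above the 65536 levels of a 16-bit scanner. Genes were named through the platform annotation (21789 probe sets with 1 symbol, 1621 with several, 12146 not listed), by the probe set with the highest mean. A model of 4 group means was fitted to all 16 arrays (limma 3.58.1, R 4.3.3, intensity trend) over the 21333 probe sets with a mean above the 40th percentile, 4.37, with p-values adjusted over all of them by Benjamini-Hochberg at 0.05. The procedure was tested on simulated data with changes larger than nearly all differences of the 10 genes. That test does not show whether differences as small as theirs can be found. SD is the spread between arrays and SE that of a difference in the fit; the number of arrays limits the precision. Named were the 10 genes in every comparison, genes of each list that passed or had its 2 smallest p, and the 8 genes most correlated with the mean of the 10. The members and lists were chosen with earlier results of these data known. Promoters are RefSeq's (GRCm38.p6), matched by gene identifier for 7 of 10 genes. Alternatives were quantile normalization, median centring, no filter or a filter at the 60th percentile, a fit without the trend, a fit to the compared groups alone, weighted arrays, a replicate block, averaged probe sets per gene, and each array left out in turn. The arrays with Myl7 above 6, or with Atf3 above 8, were left out in alternatives chosen after seeing the data. Lymphocyte, neutrophil, Schwann cell, adipocyte, epicardial, red blood cell and atrial markers had 1 to 4 genes tested per list and are given in the closing section.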

Additional observations from a re-analysis of the deposited data

Results flagged for a closer look

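In 40 sets of 4 arrays (10 endothelial genes in 4 groups), 2 had an array far from the other 3, by a gap over the group's range above Dixon's 95% critical value, where chance gives about 1 in 20. Robo4 in cKO sham replicate 1 was the highest of its group at 7.65, with a gap of 0.85 of the range. Esam in control sham replicate 2 was the lowest of its group at 8.14, with a gap of 0.844 of the range.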

How the results depend on the processing

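Over 1860 alternatives computed for 70 values of the 10 genes, 0 passed the adjusted threshold, and the smallest adjusted p was 0.0930 (Eng, cKO against control averaged over surgery). No gene turned direction between the genotypes after TAC or averaged over surgery; 18 values turned in the other comparisons. Median differences of the 10 genes ran from -0.345 to -0.191 (cKO against control, TAC) and from -0.258 to -0.173 (averaged). The sample titles do not say whether the replicate numbers pair the mice. Of 24 pairs of same-numbered arrays, 6 correlated above 0.1, from -0.205 to 0.193. Of 72 pairs with different numbers, 17 did, from -0.327 to 0.252. Such correlations cannot tell whether mice were paired. With a replicate block the median of the 10 genes after TAC was -0.25, genes at an unadjusted p under 0.05 in TAC against sham of controls were 1, and probe sets called were 0 between the sham groups and 2 averaged over surgery. Where a cause is not named below, the cause was not tested.

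Genes of the 10 at an unadjusted p under 0.05, TAC against sham in controls (2 as reported), were 1 with quantile normalization, the 60th percentile filter, array weights, no trend, the mean of probe sets, only the groups compared and without the Atf3 arrays, and 0 without the Myl7 arrays. In cKO hearts (0) they were 1 with only the groups compared. Between the sham groups (2) they were 0 with median centring and without the Myl7 arrays and 1 without the Atf3 arrays. Between the TAC groups (5) they were 2 with only the groups compared and 3 without the Atf3 arrays. They were 0 without the Myl7 arrays for TAC averaged (3) and 3 without the Atf3 arrays for genotype averaged (6).

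Probe sets called in TAC against sham of controls (0) were 5 with no filter and 1 with only the groups compared or without the Atf3 arrays; in cKO (0) 1 with only the groups compared; and for TAC averaged (0) 1 with no filter. Between the sham groups (5) they were 0 with median centring, the 60th percentile filter, the mean of probe sets and without the Myl7 or Atf3 arrays, 3 with no trend or only the groups compared, and 1 with array weights. Between the TAC groups (1) they were 2 with quantile normalization, array weights and the mean of probe sets, and 0 with no trend, only the groups compared and without the Myl7 or Atf3 arrays. For genotype averaged (4) they were 8 with quantile normalization and the mean of probe sets, 2 with median centring and no trend, 9 with the 60th percentile filter, and 1 with no filter or without the Myl7 arrays.

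Single values turned sign as follows. TAC against sham in cKO was -0.012 for Esam with median centring, 0.068 for Robo4 without the Atf3 arrays, and without the Myl7 arrays -0.045 for Eng, -0.14 for Tie1, -0.103 for Flt1 and -0.013 for Esam. TAC averaged, without the Myl7 arrays, was -0.051 for Flt1 and 0.003 for Gja5; Ccnb2 between the genotypes was 0.041 there. The interaction was -0.021 for Robo4 and -0.041 for Flt1 with median centring, and -0.105 for Flt1 without the Myl7 arrays.

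Leaving out 1 array at a time, the interaction ran from -0.121 to 0.039 for Cdh5, -0.137 to 0.009 for Eng, -0.143 to 0.054 for Esam, -0.106 to 0.113 for Flt1, -0.052 to 0.12 for Robo4 and -0.208 to 0.012 for Tie1. TAC averaged ran from -0.012 to 0.188 for Cldn5, -0.022 to 0.078 for Esam and -0.083 to 0.008 for Robo4, and Cldn5 between the sham groups from -0.007 to 0.142. TAC in cKO ran from -0.078 to 0.092 for Esam, -0.048 to 0.171 for Flt1, -0.066 to 0.068 for Robo4 and -0.015 to 0.205 for Tie1, and in controls from -0.049 to 0.128 for Esam and -0.139 to 0.024 for Robo4. Genes at an unadjusted p under 0.05 ran from 2 to 5 for TAC averaged, 0 to 1 for TAC in cKO, 0 to 4 for TAC in controls, 1 to 8 between the TAC groups, 0 to 3 between the sham groups, 4 to 7 for genotype averaged and 0 to 1 for the interaction. Probe sets called ran from 0 to 1 for TAC averaged and TAC in cKO, 0 to 2 for TAC in controls, 1 to 2 between the TAC groups, 1 to 81 for genotype averaged and 0 to 27 between the sham groups, both highest without control sham replicate 4.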

Other observations

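Beyond the 8 genes with the highest correlation, the genes with the lowest correlation with the mean of the 10 endothelial genes over the 16 arrays were looked up; they were chosen after their values were seen. Ttn and Dmd, the genes of titin and dystrophin in muscle, had r = -0.884 and -0.879, and without control TAC replicates 1 and 4 -0.794 and -0.687. Hif1an, a hydroxylase that inhibits HIF, had -0.876, and Erbb4, a neuregulin receptor of cardiomyocytes, -0.87. The others of the lowest 8 were Huwe1 (-0.872), Nat8l (-0.87), Usp9x (-0.861) and Pakap (-0.859). These values share the arrays and their scaling and are given as a description.

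Of the small marker lists, atrial genes were positive in 4 of 4 between the genotypes, averaged over surgery, with a median of 0.34, red blood cell markers negative in 2 of 2 with -0.25, epicardial markers negative in 4 of 4 with -0.06, and lymphocyte markers negative in 2 of 2 with -0.07. Of single markers tested, S100a9 of neutrophils was at -0.13, Sox10 of Schwann cells at -0.02 and Plin1 of adipocytes at 0.01.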
